A study of Mus musculus with 8 samples.

Results

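The 7 genes described here are 3 members of the *Ttc39* family (*Ttc39a*, *Ttc39b* and *Ttc39c*) and 4 regulators of high-density lipoprotein (HDL): *Abca1*, *Lcat*, *Lipg* and *Scarb1*. Their CpGs were those in the gene body or within 1500 bases upstream of the start site that had at least 5 reads in every mouse, 311 of the 897285 CpGs tested in the series. Of these, 48 lay in *Ttc39b*, 53 in *Ttc39c*, 21 in *Ttc39a*, 96 in *Scarb1*, 51 in *Abca1*, 30 in *Lipg* and 12 in *Lcat*. *Ttc39b* was selected on its difference between the age groups in these same libraries, so its values are a description and carry no test. The other genes were chosen for their family or their role, but with earlier results of these data known. The mice were female C57Bl6/J on control diet, 4 of them mid-aged (40 weeks) and 4 young (10 weeks). Their livers were perfused, the released hepatocytes were pelleted at low speed, and 1 library per mouse was made by reduced representation bisulfite sequencing (RRBS). RRBS cuts DNA with MspI at CCGG sites, so that CpG-dense fragments are read and most other CpGs are not. The comparison asked which CpGs differ in methylation, the percent of reads with an unconverted cytosine, between hepatocytes of the 2 ages.

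TTC39B is a scaffold of tetratricopeptide repeats that promotes the ubiquitination and loss of the liver X receptor (LXR), the nuclear receptor that senses oxysterols, and mice without it have more LXR protein and more HDL cholesterol. *Abca1*, an LXR target, exports cellular cholesterol to apolipoprotein A-I, *Lcat* esterifies the cholesterol of the nascent particle, endothelial lipase (*Lipg*) hydrolyses HDL phospholipids, and the receptor SR-BI (*Scarb1*) takes cholesteryl ester up into the hepatocyte. Methylation is usually absent from CpG-rich active promoters, high across gene bodies, and intermediate at many distal or alternative regulatory elements.

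Coverage summed over CpGs was 84639955 to 118395064 in the mid-aged and 46321447 to 72710972 in the young mice, so depth moved with age. A read counts once at each CpG it covers, so these sums are not numbers of reads. The labels give no batch. Pooled over all this coverage, methylation was 24.9%, 33.0%, 39.1% and 30.4% in mid-aged mice 1 to 4. It was 56.1%, 33.0%, 43.9% and 47.9% in young mice 1 to 4. Averaged per tested CpG, it was 43.6% to 44.3% in all 8 mice. The spread of reads over CpGs with high and low methylation thus differed between mice, and its cause was not tested. Of the 147 to 449 calls per library on unmethylated lambda DNA, 95.9% to 100% were converted. Across the genome 1466 CpGs were called (0.163% of those tested), 552 higher (0.0615%) and 914 lower (0.102%) in mid-aged mice, and at 3.57% of CpGs the 4 values of each group did not overlap. The mid-aged mean was the higher at 53.7% of CpGs, and 9.09% had an unadjusted p under 0.05. Calling was by a quasi-binomial test of the reads, at an adjusted p below 0.05 over all CpGs, and asked in addition that the group means differ by 5 points or more and that neither group's variance (of fractions) reach 0.05. Promoters of markers for hepatocytes, leukocytes, endothelial, stellate and bile duct cells were also read. Of 12 such promoters with enough CpGs among 41 listed, 0 were called by limma, beside 0.0565% of all promoters. An unadjusted p under 0.05 was found for 2 of the 12, beside 1584 of all 17684 promoters tested. The leukocyte marker *Adgre1* was methylated at 74.9% to 97.4% over the 8 mice and the endothelial marker *Kdr* at 0.715% to 7.09%. Of the hepatocyte markers *Apoh* was at 9.21% to 11.2%, *Fgb* at 3.35% to 26.3% and *Apob* at 15.1% to 35.0% in the mid-aged and 9.90% to 18.6% in the young mice. The bile duct marker *Spp1* was at 61.2% to 83.3%. The stellate cell markers differed from each other. *Lrat* was at 1.53% to 3.41%, *Des* at 19.4% to 21.9%, *Col1a1* at 35.7% to 47.5% and *Pdgfrb* at 37.0% to 46.4%. The groups did not overlap for the bile duct marker *Sox9*, at 1.81% to 2.43% in the mid-aged and 0.872% to 1.38% in the young mice, nor for the stellate cell marker *Reln*, at 6.53% to 7.19% and 5.54% to 5.65%. The part of other cell types in the results was not tested.

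The CpGs that carried the difference lay in 1 intronic stretch of *Ttc39b*, chr4:83284603-83285105 (mm10), 39150 to 39652 bases from the gene start and in intron 2 of transcript Ttc39b-203. A shorter annotated transcript, Ttc39b-207, begins 64 bases before this stretch in the direction of transcription, and 4 of the 5 called CpGs lie in its first exon, which is not translated. The first 3 windows below show the called CpGs and the fourth the intronic flank next to them, all on the plus strand 5′ to 3′, whereas the gene is read from the minus strand. Capitals mark called CpGs in the windows and tested CpGs, none of them called, in the flank.
chr4:83284893-83284922: atacagcatactcaCGggtttacggcagct
chr4:83284929-83284958: tcagaggaaagaacCGggttccactgtgag
chr4:83285041-83285070: caaCGtctgtttCGttccccagtctCGaga
chr4:83284593-83284736 (flank): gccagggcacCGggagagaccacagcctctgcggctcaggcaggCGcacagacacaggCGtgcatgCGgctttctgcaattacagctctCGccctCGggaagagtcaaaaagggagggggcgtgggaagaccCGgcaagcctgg
The second window holds a CCGG site, which MspI cuts, and its called CpG is the one inside that site. The 144 bases of the flank hold 9 CpGs, of which 7 were tested, and 2 such sites.

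Within this stretch all 14 tested CpGs had a higher mean in mid-aged than in young mice and 5 were called. Averaged over the 14, methylation was 50.8%, 51.1%, 53.5% and 51.6% in mid-aged mice 1 to 4 and 28.4%, 27.5%, 28.2% and 32.4% in young mice 1 to 4. The groups stood apart, 51.8% ± 1.20 against 29.1% ± 2.21 (SD, n = 4 each), a difference of 22.6 percentage points. CpGs this close share reads, so they are not independent measurements. In all of *Ttc39b* 5 of 48 CpGs were called, all higher, beside 0.0615% called higher among all CpGs, a share that the choice of the gene fixed.

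The largest difference was at chr4:83284907, with its cytosine 1 base outside the first exon of Ttc39b-207. Its methylation was 77.8%, 62.8%, 73.9% and 70.1% in the mid-aged mice and 17.5%, 17.3%, 30.6% and 31.0% in the young mice, on 36 to 115 reads a mouse. Every mid-aged mouse lay over 30 points above every young mouse, with a mean difference of 47.0 points. For the closest mice the 95% Wilson intervals, which cover counting error only, were 53.6% to 71.2% in mid-aged mouse 2 and 22.8% to 40.6% in young mouse 4. The CpG inside the CCGG site, chr4:83284943, was at 48.1%, 41.4%, 41.2% and 50% in the mid-aged and at 4.11%, 16.7%, 19.4% and 15.6% in the young mice, 31.3 points apart. Young mouse 1 was the lowest of all there, and no mid-aged mouse came near the young range.

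The other 3 called CpGs fell within 30 bases, on 89 to 240 reads a mouse. At chr4:83285053 the mid-aged mice had 51.6%, 57.9%, 63.1% and 62.8% and the young mice 19.8%, 33.6%, 15.6% and 27.3%, a difference of 34.8 points. At chr4:83285066 the values were 24.6%, 42.9%, 33.7% and 45.3% against 18.9%, 16.1%, 14.4% and 16.9%, a difference of 20.1 points. Here mid-aged mouse 1 lay much nearer to the young mice than the other mid-aged mice did. At chr4:83285044 they were 20.8%, 22.1%, 28.7% and 26.5% against 8.79%, 2.68%, 11.2% and 7.50%, a difference of 16.97 points, the smallest among the called CpGs. These neighbouring CpGs differed in level, and at each of the 3 the groups did not overlap. With reads thinned to equal coverage in every mouse, 6 CpGs of the gene were called in place of 5. With limma on M values (a log ratio of methylated to unmethylated reads), 0 were called. The study also used limma, but its methods do not name M values. By the quasi-binomial test 3 were called without mid-aged mouse 2, 3 or 4.

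**Figure D1:**
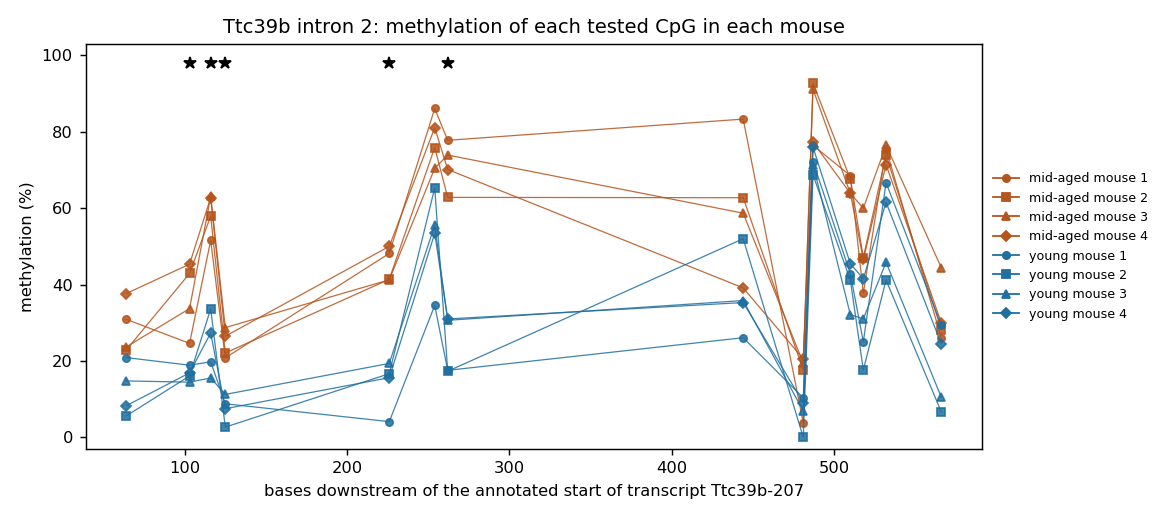
Methylation (percent, linear axis) of the 14 tested CpGs of the *Ttc39b* stretch in each of the 8 mice, against bases downstream of the annotated start of Ttc39b-207; lines join the CpGs of 1 mouse and stars mark the 5 called CpGs. At the 5 starred CpGs the mid-aged mice all lie above the young mice, and the levels change from CpG to CpG in both groups.

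The 9 uncalled CpGs of the stretch differed by 8.77 to 26.2 points, and at 5 of them the groups did not overlap. The groups overlapped at the one farthest from the Ttc39b-207 start, chr4:83284603, with 26.1% to 44.4% in the mid-aged and 6.67% to 29.4% in the young mice. Levels within the stretch ran from a young mean of 6.58% to one of 72.1% and from a mid-aged mean of 15.4% to one of 84.4%. None of the 14 was free of methylation or fully methylated in the mean of either group.

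Outside the stretch, the 34 other CpGs of *Ttc39b* differed by at most 11.4 points, and at 1 of them the groups did not overlap. The 25 CpGs from 32 to 419 bases inside the gene start, in exon 1 and intron 1, were almost free of methylation, at 0.364% to 0.889% in the mid-aged and 0.00% to 0.504% in the young mice. These 25 are also all the tested CpGs of its promoter window. Farther into the gene, 5 CpGs of intron 7 averaged 92.3% ± 4.83 in the mid-aged and 91.1% ± 3.14 in the young mice, and the 1 CpG tested in intron 8 was at 95.9% ± 4.02 and 97.8% ± 1.75 (SD, n = 4 each). The 3 CpGs at 34871 to 35022 bases, between the stretch and the gene start, averaged 86.5% ± 1.59 and 84.8% ± 7.50. The one at chr4:83289341 had the largest loss in the gene, with 85.7%, 85.7%, 87.9% and 82.6% in the mid-aged and 100%, 100%, 88.9% and 94.7% in the young mice, on only 6 to 38 reads a mouse. The groups did not overlap there, but the CpG was not called.

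The called CpGs of *Ttc39b* formed 1 run, here at least 3 called CpGs of 1 direction at most 200 bases apart. Such runs numbered 119 across the genome, 40 higher and 79 lower in mid-aged mice. The *Ttc39b* run averaged 47.3% ± 2.88 in the mid-aged and 17.3% ± 2.49 in the young mice (SD, n = 4 each). As many called CpGs or more were in 50 runs, counting *Ttc39b*, and a difference as large or larger in 65. Both counts take gains and losses together. Among all runs it was thus neither among the longest nor among the largest. By root mean square distance over the means of the 8 mice, the runs most like it lay in *Ptk7* (3.75 points away, 5 called CpGs), *C1ql3* (3.87 points, 30), *Tent5a* (3.89 points, 4), *Phldb2* (5.77 points, 19) and again *Ptk7* (6.14 points, 27). *Ptk7* encodes a pseudokinase of the planar cell polarity pathway and *C1ql3* a secreted C1q-like protein. In each of the 5 the young mice had the lower values, as the choice by likeness requires.

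**Figure D2:**
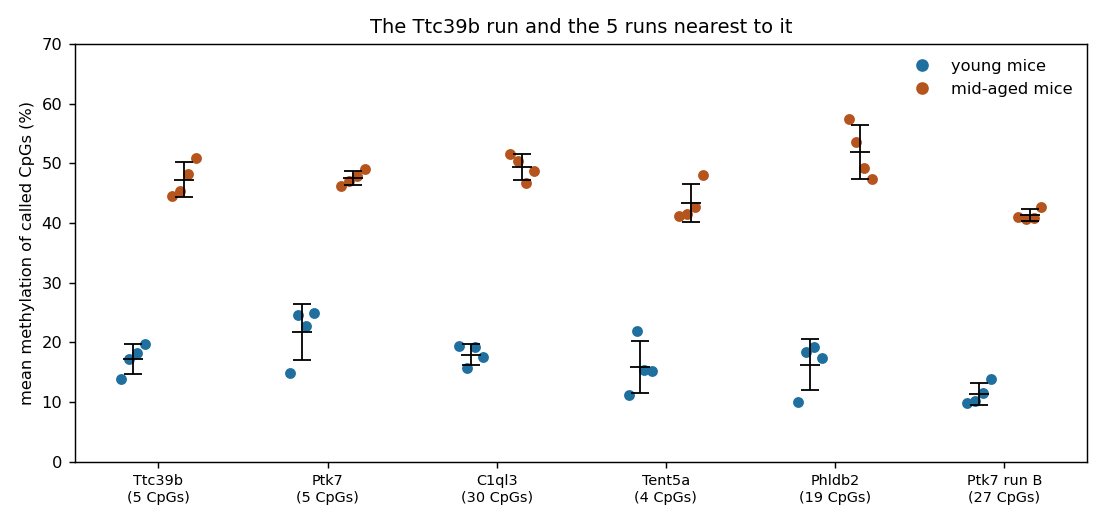
Mean methylation (percent) of the called CpGs in the *Ttc39b* run and in the 5 runs nearest to it, with 1 point per mouse, black bars for the mean and SD of 4 mice, and the number of called CpGs in brackets. The *Ttc39b* run sits at 17.3% in young and 47.3% in mid-aged mice, and the others were picked for lying close to these values.

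Its family members showed no call. The 21 tested CpGs of *Ttc39a* (chr4:109406623-109444745) and the 53 of *Ttc39c* (chr18:12599896-12738863) gave 0 called CpGs by the quasi-binomial test and 0 by limma on M values, with 2 and 4 at an unadjusted p under 0.05, beside 9.09% of all CpGs. Methylation in the body of *Ttc39a* changed from patch to patch, a patch being tested CpGs at most 200 bases apart. It was 97.4% ± 2.68 in the mid-aged and 96.8% ± 4.72 in the young mice for 2 CpGs in intron 2 and 94.7% ± 2.29 and 93.7% ± 2.41 for 4 CpGs around exon 11. Between these, 2 CpGs in intron 3 averaged 55.9% ± 17 and 59.4% ± 14, and 11 CpGs around exon 9 were at 63.2% to 74.4% in the mid-aged and 46.2% to 72.3% in the young mice. The CpG with the smallest adjusted p in *Ttc39a*, chr4:109430998 in intron 9, was at 59.5%, 58.4%, 63.3% and 55.4% in the mid-aged and 24.0%, 47.2%, 46.0% and 57.5% in the young mice. The groups overlapped, and its difference of 15.4 points did not pass (adjusted p = 0.518, quasi-binomial test over all CpGs). The groups did not overlap at 1 CpG of the gene, chr4:109430957, with 67.8% to 88.9% against 0% to 67.7%, where the value of 0% in young mouse 2 stood on 5 reads.

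*Ttc39c* has an annotated start 43 kb inside the gene, where transcript Ttc39c-201 begins, and its unmethylated CpGs lay there. The 20 CpGs at 43431 to 43767 bases from the gene start averaged 0.84% in the mid-aged and 0.433% in the young mice, and the next 10, at 44039 to 44155 bases, 1.83% and 1.60%. Farther along the gene the levels were higher in both groups, with 16.8% ± 4.52 and 15.4% ± 1.93 from 46179 bases, 60.6% ± 12.0 and 74.8% ± 15 at 86231 bases and 98.7% ± 0.189 and 98.5% ± 0.785 from 132266 bases (mid-aged and young mice, SD, n = 4 each). Before the internal start, the 1 tested CpG at 10036 bases was at 94.2% ± 1.46 and 98.6% ± 2.90. The smallest adjusted p was at chr18:12643939, at 0% in all 4 mid-aged mice and at 12.5%, 4.48%, 2.86% and 0% in the young mice. With 64 to 147 reads in the mid-aged mice and 24 to 67 in the young, the difference of 4.96 points was not called (adjusted p = 0.234). No CpG of *Ttc39c* had groups that did not overlap.

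Among the other 6 genes the 1 called CpG was in *Lipg* (chr18:74939322-74961263), beside 0.163% called among all CpGs, and it was lower in mid-aged mice. It lay at chr18:74960197, in intron 1 and 1066 bases inside the start. Methylation there was 5.36%, 8.61%, 6.80% and 7.27% in the mid-aged and 24.0%, 48.4%, 34.7% and 32.1% in the young mice, on 50 to 151 reads a mouse. The groups were well apart, and the fall of 27.8 points from 34.8% ± 10.1 to 7.01% ± 1.34 (SD, n = 4 each) passed (adjusted p = 0.00175, quasi-binomial test over all CpGs). By limma on M values it was not called (adjusted p = 0.166), while with reads thinned to equal coverage it was (difference -26 points, adjusted p = 0.000223). The 95% Wilson interval was 14.3% to 37.4% in young mouse 1, the lowest young mouse, and 5.10% to 14.2% in mid-aged mouse 2, the highest mid-aged mouse.

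The CpG 42 bases further into *Lipg*, chr18:74960155, was at 44.0%, 14.7%, 11.1% and 26.5% in the mid-aged and 60%, 75.0%, 29.6% and 56.2% in the young mice. Its difference of -31.1 points was larger than at the called CpG, but mid-aged mouse 1 overlapped the young range and it did not pass (adjusted p = 0.20). On the other side, chr18:74960368 was at 6.25% to 7.62% in the mid-aged and 10.9% to 18.5% in the young mice, groups that did not overlap, and was not called either (adjusted p = 0.294). The 5 other CpGs of these 8 differed by at most 1.73 points. The 3 CpGs that differed more therefore stood among neighbours with little methylation in either group. Around these 8 the start of *Lipg* was unmethylated in both groups, at 1.38% and 1.3% in 7 CpGs of exon 1 and at 1.20% and 0.782% in 5 CpGs farther upstream, and 5 CpGs of intron 9 were at 93.1% and 95.4% (mid-aged and young means).

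In *Abca1* (chr4:53030787-53159895) 0 of 51 CpGs were called by the quasi-binomial test and 0 by limma on M values, with 2 at an unadjusted p under 0.05 (9.09% of all CpGs). The 8 tested CpGs upstream of the start, 171 to 267 bases before it, were at 1.08% to 1.96% in the mid-aged and 0.00% to 2.39% in the young mice, and the 19 CpGs from 506 to 1051 bases inside it averaged 1.35% and 1.45%. Low to intermediate methylation continued into the gene. A CpG 6643 bases in was at 16.3% ± 2.08 and 20.1% ± 7.79, and 6 CpGs at exon 2 and in the intron before it, 15586 to 15888 bases in, at 22.7% ± 8.10 and 19.9% ± 3.49 (mid-aged and young mice, SD, n = 4 each). From 32999 bases onward every patch averaged above 90% in both groups. The smallest adjusted p was in the first of these, at chr4:53126699 in intron 5, with 100%, 80.4%, 63.0% and 80.0% in the mid-aged and 97.2%, 94.4%, 88.9% and 86.0% in the young mice (difference -10.8 points, adjusted p = 0.467). The groups overlapped, and mid-aged mouse 1 had only 5 reads there.

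**Figure D3:**
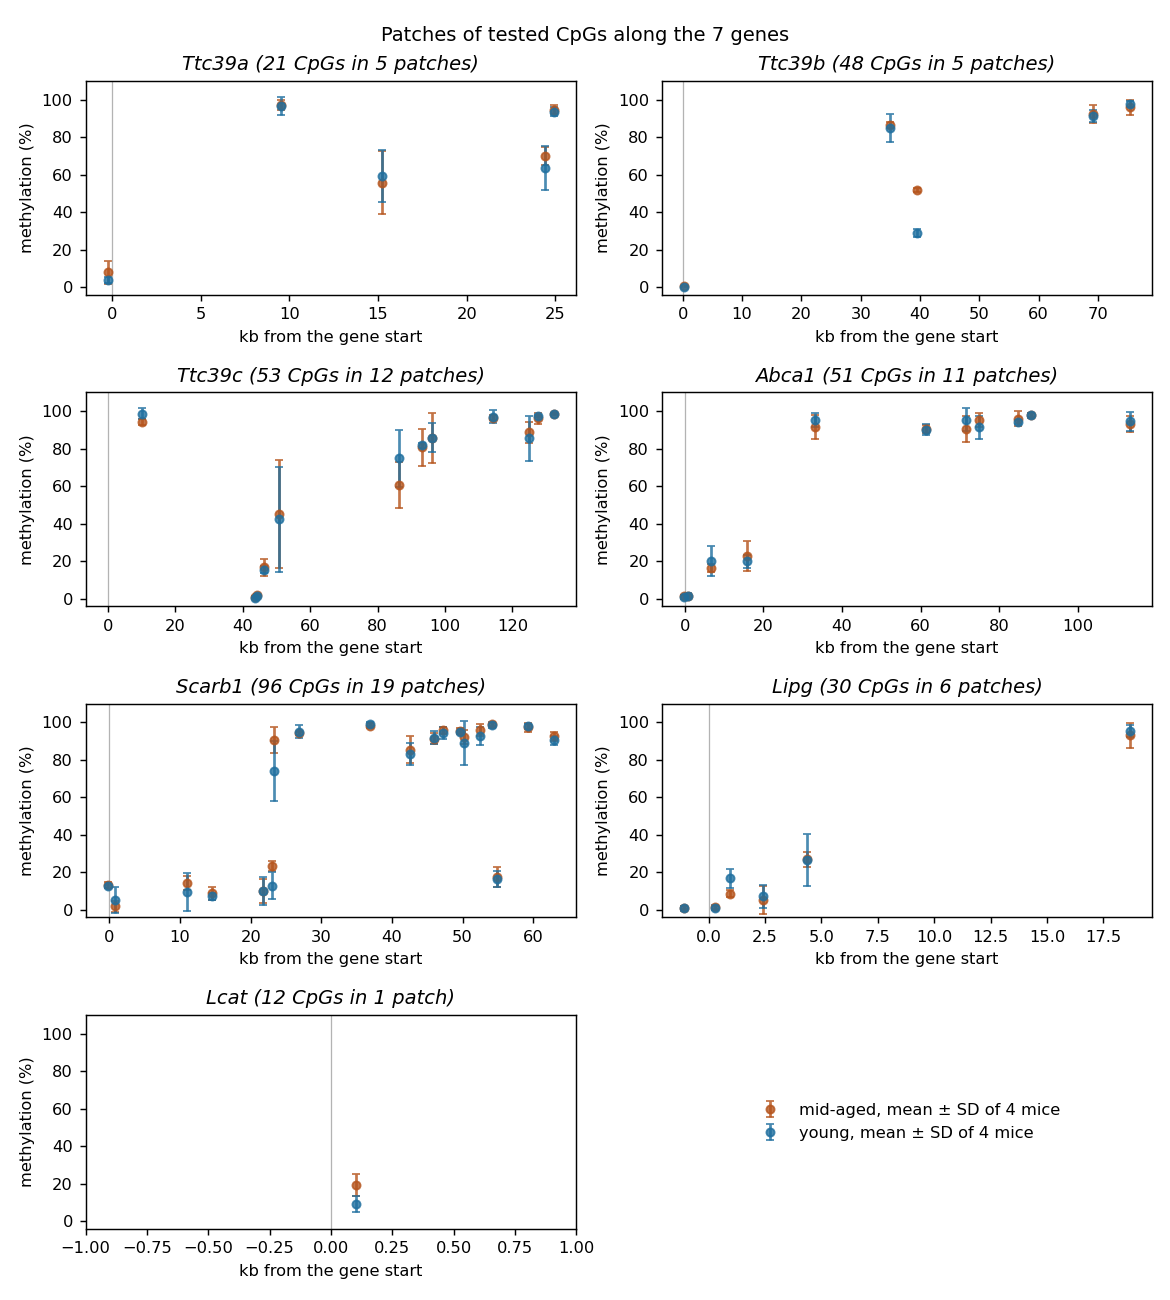
Methylation (percent) of each patch of tested CpGs in the 7 genes against kb from the gene start, as mean and SD of 4 mice per age group; a patch joins CpGs at most 200 bases apart. In *Ttc39b* the patch at 39 kb is at 51.8% in the mid-aged and 29.1% in the young mice, while the groups lie close together in most other patches.

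*Scarb1* (chr5:125277087-125341094) had the most tested CpGs and 0 calls by the quasi-binomial test, 0 by limma on M values and 6 of 96 CpGs at an unadjusted p under 0.05 (9.09% of all CpGs). In both groups its promoter held CpGs with little methylation next to the start and CpGs of mixed levels farther upstream. From the start to 191 bases upstream the 10 CpGs had means of at most 3.60% in the mid-aged and 3.31% in the young mice, and beyond 250 bases upstream the levels changed from CpG to CpG. The window below, on the plus strand of mm10 and upstream of the gene, spans that change with its 10 tested CpGs in capitals.
chr5:125341248-125341536: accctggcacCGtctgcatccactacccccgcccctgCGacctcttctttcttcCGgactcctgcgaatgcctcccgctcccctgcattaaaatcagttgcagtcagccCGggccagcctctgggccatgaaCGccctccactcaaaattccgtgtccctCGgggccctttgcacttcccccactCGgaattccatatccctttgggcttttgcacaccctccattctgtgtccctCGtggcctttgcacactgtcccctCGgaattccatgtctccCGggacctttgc
From left to right after the first 3, the mid-aged and young means were 39.6% and 28.2% for the fourth, 52.7% and 51.6% for the fifth, 11.9% and 4.84% for the sixth and 0.684% and 1.02% for the seventh. The last 3, on 136 to 332 reads a mouse, rose away from the gene, from 16.7% ± 0.551 and 17% ± 5.37 through 40.4% ± 3.41 and 38.9% ± 4.79 to 68.5% ± 2.10 and 64.4% ± 8.88 (mid-aged and young mice, SD, n = 4 each). None of these CpGs was called, and at each of the 10 the groups overlapped.

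Inside *Scarb1* 12 patches had a mean above 70% in both groups, and 5 in intron 1 and 1 in intron 9 stayed below 25% in both. The 6 CpGs at 22913 to 23034 bases in intron 1 averaged 22.1%, 21.9%, 27.7% and 21.9% in the mid-aged and 16.6%, 5.09%, 9.03% and 20.9% in the young mice. The groups did not overlap in this mean, but the closest mice, mid-aged 4 and young 4, differed by under 1 point, and none of the 6 CpGs was called. The 14 CpGs at about 55 kb in intron 9 were at 12.0% to 24.7% in the mid-aged and 9.78% to 19.2% in the young mice. Among them was the smallest adjusted p of the gene, at chr5:125286226, with 29.4%, 20%, 25.6% and 12.1% in the mid-aged and 6.67%, 4.55%, 11.8% and 6.35% in the young mice. The groups were close but did not overlap, and the difference of 14.4 points did not pass (adjusted p = 0.356).

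*Lcat* (chr8:105939551-105943382) was read only around its start, in 12 CpGs from 160 bases upstream to 367 bases inside it. Here 11 of the 12 had a higher mean in mid-aged mice, beside 53.7% of all CpGs, and at 4 of them the groups did not overlap, beside 3.57%. The 12 lie within 527 bases and close neighbours share reads, so these counts are not of independent measurements. None was called by the quasi-binomial test or by limma on M values, although 6 had an unadjusted p under 0.05, beside 9.09% of all CpGs. The windows below, on the plus strand of mm10, show the CpG nearest to a call, in intron 1, and the 2 tested CpGs upstream, each in capitals.
chr8:105943097-105943126: caccaattcaggctCGtgagggctcatggt
chr8:105943465-105943553: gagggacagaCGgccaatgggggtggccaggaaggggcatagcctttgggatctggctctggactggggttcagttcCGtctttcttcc
The CpG in the first window, chr8:105943111, was at 13.8%, 24.7%, 19.4% and 14.4% in the mid-aged and 3%, 10.5%, 5.66% and 6.57% in the young mice. All mid-aged mice were above all young mice, by 11.7 points in the mean (18.1% ± 5.09 against 6.42% ± 3.09, SD, n = 4 each), on 58 to 198 reads a mouse. It missed the threshold (adjusted p = 0.0543, quasi-binomial test over all CpGs). It passed under 4 of 12 alternatives, among them the quasi-binomial fit at 10 reads a CpG (adjusted p = 0.0456) and the fits without young mouse 1 or 2 (adjusted p = 0.0468 and 0.0226), and did not with reads thinned to equal coverage (adjusted p = 0.289).

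Over its 12 CpGs *Lcat* averaged 13.3%, 23.1%, 15.9% and 25.5% in the mid-aged and 3.17%, 8.81%, 12.4% and 12.3% in the young mice. The groups did not overlap, but mid-aged mouse 1 was within 1 point of young mouse 3, and the difference of 10.3 points did not pass in the fit over all genes or promoters (adjusted p = 0.273 and 0.376, limma). The CpGs upstream, at 93 and 160 bases, were at 7.84% to 14.3% and 7.89% to 20.2% in the mid-aged and 0% to 7.50% and 0% to 12.1% in the young mice. The annotation places the antisense gene Gm16156 and *Slc12a4* over parts of this region, and these CpGs were not assigned between the genes.

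**Figure D4:**
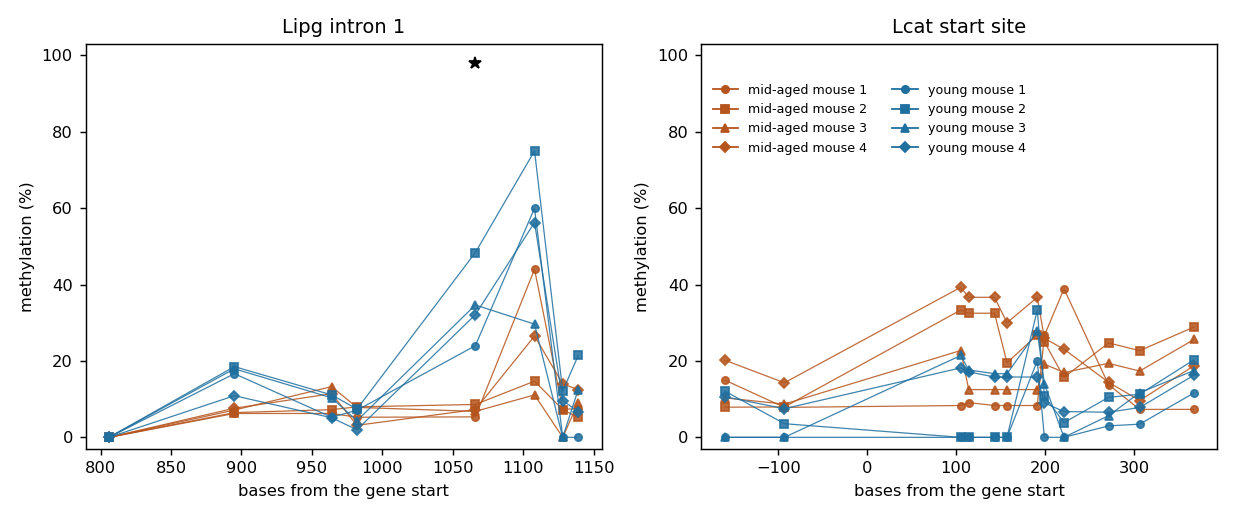
Methylation (percent) in each of the 8 mice at the 8 tested CpGs of *Lipg* intron 1 and the 12 of *Lcat*, against bases from the gene start, negative upstream; the star marks the 1 called CpG. At the star the mid-aged mice lie between 5.36% and 8.61% and the young mice between 24.0% and 48.4%, and in *Lcat* the mid-aged mice are mostly higher.

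Over the 6 genes other than *Ttc39b*, 1 of 263 CpGs was called, and at 11 the groups did not overlap, beside 3.57% of all CpGs. The median difference over these 263 was 0.472 points and over all tested CpGs 0.212 points. Of the 311 member CpGs 34 rested on the minimum of 5 reads in at least 1 mouse, and 26 further CpGs of these genes were left out for a lowest coverage of 4 reads.

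Per gene, the mean over all tested CpGs was highest in *Ttc39a*, at 68.2% ± 5.32 (SD over 8 mice), then *Scarb1* at 48.3% ± 1.43, *Abca1* at 34.7% ± 1.51, *Ttc39c* at 33.6% ± 1.05, *Ttc39b* at 28.9% ± 3.81, *Lipg* at 23.4% ± 2.59 and *Lcat* at 14.3% ± 7.25. *Abca1* and *Ttc39c* lay within each other's spread, and the order depends on which CpGs were tested. By age, *Ttc39b* was at 32.7%, 32.2%, 33.3% and 31.6% in the mid-aged and 24.9%, 25.7%, 24.9% and 26.2% in the young mice, 7.03 points higher. When reads were pooled over its CpGs before the percent was taken, that difference turned to -0.758 points, and the cause was not tested. Of the other genes none passed in the fit over 24433 genes, in which 127 were called by limma (0.52%, 72 of them higher, 0.295%). *Scarb1* was at 49.2% ± 1.34 against 47.5% ± 0.942 (adjusted p = 0.477, limma). *Lipg* was at 22.1% ± 1.35 against 24.6% ± 3.11 (adjusted p = 0.595), *Ttc39a* at 70.04% ± 2.48 against 66.3% ± 7.13 (adjusted p = 0.737), *Abca1* at 34.8% ± 1.86 against 34.7% ± 1.36 and *Ttc39c* at 33.7% ± 1.19 against 33.5% ± 1.07 (adjusted p = 0.972 for both). These differences were not stable to pooling the reads of a gene, which turned that of *Abca1* from 0.17 to -11.4 points, of *Ttc39c* from 0.124 to -11.9 and of *Scarb1* from 1.76 to -2.96. It widened that of *Ttc39a* from 3.71 to 10.4 and of *Lipg* from -2.50 to -4.88, left *Lcat* at 9.53, and called none of the 6.

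Promoters, from 1500 bases before to 500 after the gene start, could be averaged for 5 of the 7 genes, since *Ttc39a* and *Ttc39c* had fewer than 3 tested CpGs there. *Lcat* was highest at 14.3% ± 7.25, close to *Scarb1* at 12.9% ± 1.19, and *Lipg*, *Abca1* and *Ttc39b* lay at 1.20% ± 0.583, 1.19% ± 0.845 and 0.436% ± 0.324 (SD over 8 mice). In RefSeq's promoters (GRCm38.p6), 300 bases around each start, *Abca1* had 26 CpGs and *Ttc39b* 24, more than 83.1% and 80.0% of 32851 promoters, and *Lcat* had the median number, 7. The difference between the ages was at most 0.843 points in promoters other than that of *Lcat*. None of the 4 tested beside *Ttc39b* passed in the fit over 17684 promoters, in which 10 were called by limma (0.0565%, 7 higher, 0.0396%), with an adjusted p of 0.376 to 0.907.

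**Figure D5:**
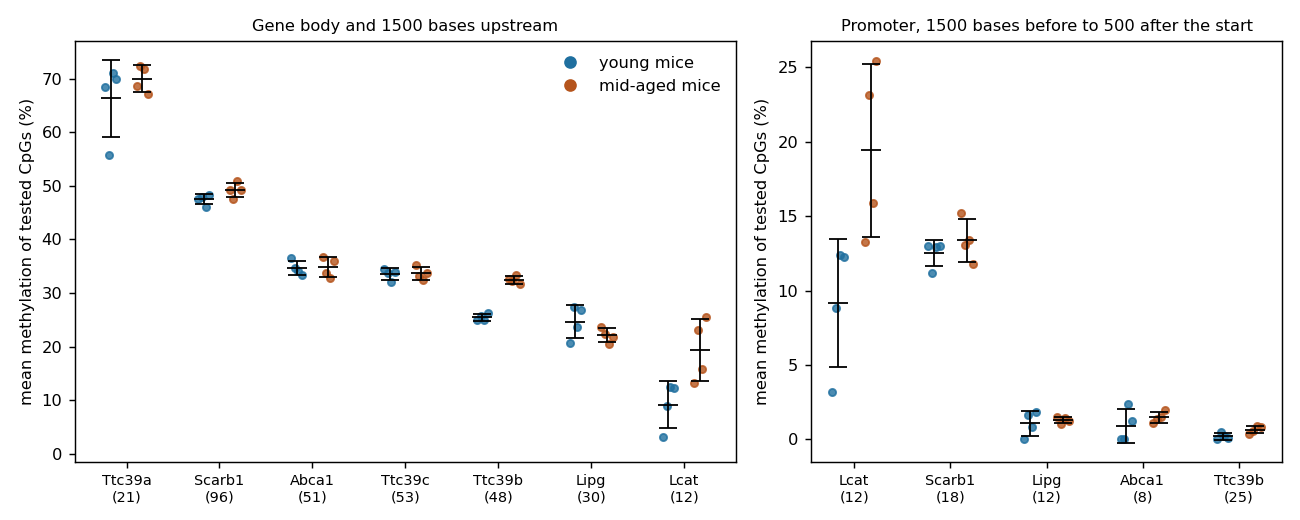
Mean methylation (percent) of the tested CpGs of each gene (left) and promoter (right) in each mouse, with black bars for the mean and SD of 4 mice and the number of CpGs in brackets; the 2 vertical axes differ. *Ttc39b* is at 25.4% in young and 32.5% in mid-aged mice without overlap, while its promoter is below 1% in every mouse.

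In the wider pathway, 3 gene lists were read with the same fit. Of 28 other genes of HDL particles and their remodelling, 20 had tested CpGs, and 2 of 619 CpGs were called (0.323%, beside 0.163% of all CpGs), both lower in mid-aged mice and both in *Pcsk6*, a proprotein convertase that can inactivate lipases. The larger, at chr7:65892514, was at 35.7%, 48.4%, 45.5% and 30.8% in the mid-aged and 86.1%, 70%, 84.6% and 70.8% in the young mice (difference -37.8 points, adjusted p = 0.0485). By limma on M values 0 of the 619 were called. Of 819 CpGs in 17 genes of cholesterol synthesis, uptake and trafficking, 0 were called by the quasi-binomial test and 0 by limma on M values, with 91 at an unadjusted p under 0.05, beside 9.09% of all CpGs.

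The list of LXR, its corepressors and its targets had 1395 tested CpGs in 21 genes. Of these genes *Fasn* held 14 called CpGs and *Scd1* held 1, all lower in mid-aged mice, beside 0.102% called lower among all CpGs. By limma on M values only 2 CpGs of the whole list were called, so most of these calls did not hold under that test. In *Fasn*, the fatty acid synthase, the largest loss was at chr11:120820065, 4482 bases from the gene start, with 36.0%, 22.9%, 35.3% and 35.4% in the mid-aged and 96.2%, 90.9%, 82.6% and 83.3% in the young mice (difference -55.9 points, adjusted p = 0.000284). The groups did not overlap at this CpG. *Scd1*, the stearoyl-CoA desaturase, had its call at chr19:44397939, with 41.2% ± 3.81 against 72.6% ± 5.58 (SD, n = 4 each, adjusted p = 0.00183). The LXR genes *Nr1h2* and *Nr1h3* and the receptor partners *Rxra* and *Rxrb* held no call, and at the level of whole genes 1 of 20, *Fasn*, passed.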

How the data were processed

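Per the labels, RRBS libraries were made from hepatocytes of 8 mice after MspI digestion, adaptor ligation, bisulfite conversion and PCR. The submitters' processing notes list mm10 as the build, with BWA 0.6.2, Trim Galore 0.4.2, Picard 1.115, SAMtools 1.3 and FastQC. Which program called methylation was not given in the sources used here. The deposited files give, for each CpG and strand, the percent of methylated reads as the authors called it. Beside it the deposited files give the coverage as a count of reads, without molecular identifiers, so that intervals cover counting error only.

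Strands were summed, and CpGs with at least 5 reads in every mouse were kept. Median coverage of the tested CpGs was 29 to 76 reads a mouse. Each CpG was tested with a quasi-binomial model of methylated reads, with dispersions moderated by limma 3.58.1 (R 4.3.3) and Benjamini-Hochberg adjustment over all 897285 CpGs. Gene and promoter means of at least 3 CpGs were tested by limma. The study tested single CpGs by limma, and limma was run here on M values, which its methods do not name, as an alternative. Genes and exons came from GENCODE vM21, and sequences from the GRCm38.p6 assembly.

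All 7 genes were named. In *Ttc39b* the CpGs named were its run and the largest gain and loss, in the others the called CpGs or, with none, that of smallest adjusted p. CpGs of the *Ttc39b* stretch outside the run, of *Lipg*, *Lcat* and *Scarb1* beside these, and chr4:109430957 were named after their values were seen. List genes were named where called, at most 4 a list. Likeness was the root mean square distance between runs. The members and lists were chosen with earlier results of these data known. One result of the LXR list is not reported here.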

Additional observations from a re-analysis of the deposited data

Results flagged for a closer look

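In 50 groups of 4 mice the highest or lowest value was compared with its nearest neighbour by Dixon's test, which by chance marks about 1 group in 20. The mean over the 21 CpGs of *Ttc39a* was 55.8% in young mouse 2, far below the 68.5% to 71.1% of the other young mice (gap over range 0.834). Of these CpGs 6 had 5 reads in that mouse, and 3 neighbouring CpGs, chr4:109430957, 109430963 and 109430990, were at 0% there. The mean over the 18 CpGs of the *Scarb1* promoter was 11.2% in the same mouse, against 12.9% to 13.0% in the other young mice (ratio 0.975), a gap of small size among values that lay close together. The cause of either was not tested.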

How the results depend on the processing

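The count of called CpGs across the genome moved from 1466 to 40 with limma on M values and to 612 to 2405 without 1 mouse. In *Ttc39b* the 5 calls became 0 with limma on M values and 3 to 6 without 1 mouse, with 3 left without mid-aged mouse 2, 3 or 4. In the 6 other genes the 1 call became 2 at 10 reads a CpG (*Lipg* and *Lcat*), 0 with limma on M values, and 1 to 2 without 1 mouse, with 2 when young mouse 1 or 2 was left out. Genes called fell from 127 to 18 with reads pooled over CpGs and to 47 to 85 without 1 mouse, and promoters called from 10 to between 2 and 8. The gene difference of *Ttc39b* turned to -0.758 points with pooled reads, and the cause was not tested.

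In their deviations from the group means, mid-aged and young mice of the same number had correlations of -0.0016 to 0.0058. Those of different numbers had -0.0084 to 0.0055. The labels give no batch, and correlations this small cannot tell whether mice of the same number shared a preparation. With the replicate block 3648 CpGs, 7 in *Ttc39b*, 3 in the 6 other genes (in *Lipg* and *Lcat*), 17 genes and 0 promoters were called, and *Ttc39b* was no longer among the genes called. The moderation of CpG dispersions had 165 prior degrees of freedom with the block and 11.4 without it. A CpG's own spread between mice therefore counted less in the block fit, which limits its CpG counts.

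The *Lipg* call held in 11 of 12 alternatives, with differences of -31.4 to -23.3 points. With 4 mice a group, 3.48% of the CpGs of *Ttc39b* and 3.27% of those of *Abca1* tested, and neighbours sharing reads, most of each gene was not seen.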
